A study of Mus musculus with 24 samples.

Results

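Luminal progenitors of the mouse mammary gland were compared between Id4 knockout (KO) and wild-type (WT) females across all measured genes. The members are 8 of the 24 libraries of the series, 4 KO and 4 WT, chosen by their population and genotype labels with no measured value used. All came from FVB/N mice aged 10 to 12 weeks in estrus, and each library pooled glands from 4 to 8 mice. Cells that were live, negative for lineage markers, CD24 positive, low in CD29 (integrin beta 1) and positive for CD61 (integrin beta 3) were sorted as luminal progenitors. The labels refer to an earlier description of the mutant line. Neither the deleted part of Id4 nor the tissues that carry the deletion are described in the labels. Basal cells and CD61-negative mature luminal cells of the same genotypes made up the other 16 libraries. Replicates 1 to 4 were paired across genotypes by number.

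ID4 is a helix-loop-helix protein without a DNA-binding domain. It dimerizes with E proteins such as TCF3 and keeps them from binding the E-box motif of their target genes. In the mammary gland ID4 is known mainly from basal cells. Luminal progenitors are the cells that give rise to milk-secreting alveolar cells and are marked by ELF5, KIT and integrin beta 3. Mature luminal cells carry the receptors for estrogen, progesterone and prolactin.

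Totals of the expected counts ran from 4227099 to 7246445 in the WT libraries and from 3786225 to 6590338 in the KO libraries. At these depths 3 counts equalled 0.414 to 0.792 CPM, the counts per gene after scaling of library sizes in edgeR. Mitochondrial ribosomal RNA took 16.4% to 28.2% of the counts in WT and 13.6% to 35.1% in KO. The median Spearman correlation of a library with the other 3 of its genotype was 0.843 for KO replicate 3 and 0.897 to 0.91 for the other 7 libraries. The deposited data held 24007 genes, of which 11700 had enough counts to be tested. The sort yielded little RNA (0.5 to 2 ng), which was amplified without molecular identifiers, so counts carry amplification noise.

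Id4 itself was near the detection limit in luminal progenitors of both genotypes. It is a plus-strand gene at chr13:48261228-48266026 (mm10). WT replicates 1 to 4 held 0, 1, 2 and 5 counts of Id4, and KO replicates 1 to 4 held 0, 0, 0 and 4. These counts are too low for a test, so in this population the transcript does not check the genotype labels. Basal cells held Id4 at 42.2 ± 31.3 CPM in WT and 5.86 ± 5.58 CPM in KO (SD, n = 4, scaled over all 24 libraries).

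The marker genes of luminal progenitors were present in both genotypes. Elf5, a transcription factor of the alveolar lineage, stood at 206.9, 335, 176 and 140 CPM in WT replicates 1 to 4. Its KO values were 183, 135, 125 and 194 CPM. Kit, a receptor tyrosine kinase, stood at 395, 281, 252 and 253 CPM in WT and at 326, 240.5, 589 and 359 CPM in KO. Itgb3, the gene of CD61, stood at 225, 186, 154 and 167 CPM in WT, and KO replicate 1, at 370 CPM, lay apart from the other KO libraries at 118 to 153 CPM. The genotypes overlapped for all 3 genes, and none passed in edgeR (log2 KO over WT -0.38, 0.30 and -0.04, adjusted p = 0.818, 0.84 and 0.985). On the scaling over 24 libraries, mature luminal cells held less of each in WT: Elf5 at 18.5 ± 10.3, Kit at 52.9 ± 22.3 and Itgb3 at 3.32 ± 1.59 CPM (SD, n = 4). Since CD61 was used to sort both populations, the Itgb3 levels are not independent of the sort. The basal keratin Krt5 was at 4.7 ± 3.04 CPM in WT and 1.69 ± 0.698 CPM in KO luminal progenitors, against 598 ± 176 CPM in WT basal cells.

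In luminal progenitors edgeR's quasi-likelihood test, with the replicate number as a block, called no gene between the genotypes. Of 11700 genes 0 were called at an adjusted p under 0.05 (0%), and the smallest adjusted p was 0.134. At an unadjusted p under 0.05 there were 843 genes, 487 with higher fitted values in KO (4.16% of those tested) and 356 with lower ones (3.04%). KO lay above WT in all 4 pairs for 955 genes (8.16%) and below WT for 934 (7.98%). The genotypes were fully separated, with every KO library higher, for 175 genes (1.5%), and with every KO library lower for 155 (1.32%). The median log2 fold change over all genes was -0.02, with quartiles of -0.29 and 0.25. DESeq2 with the same block called 87 genes (0.903% of the 9633 with an adjusted p), 62 higher and 25 lower in KO, and limma's voom with sample weights called 23 (0.197%), 18 higher and 5 lower. All 23 voom calls were also DESeq2 calls and had 1 sign in all 4 pairs. The words higher and lower below describe fitted values and levels, since edgeR called none of the genes. Where a gene was called by DESeq2 or voom, this is said at the gene.

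**Figure D1:**
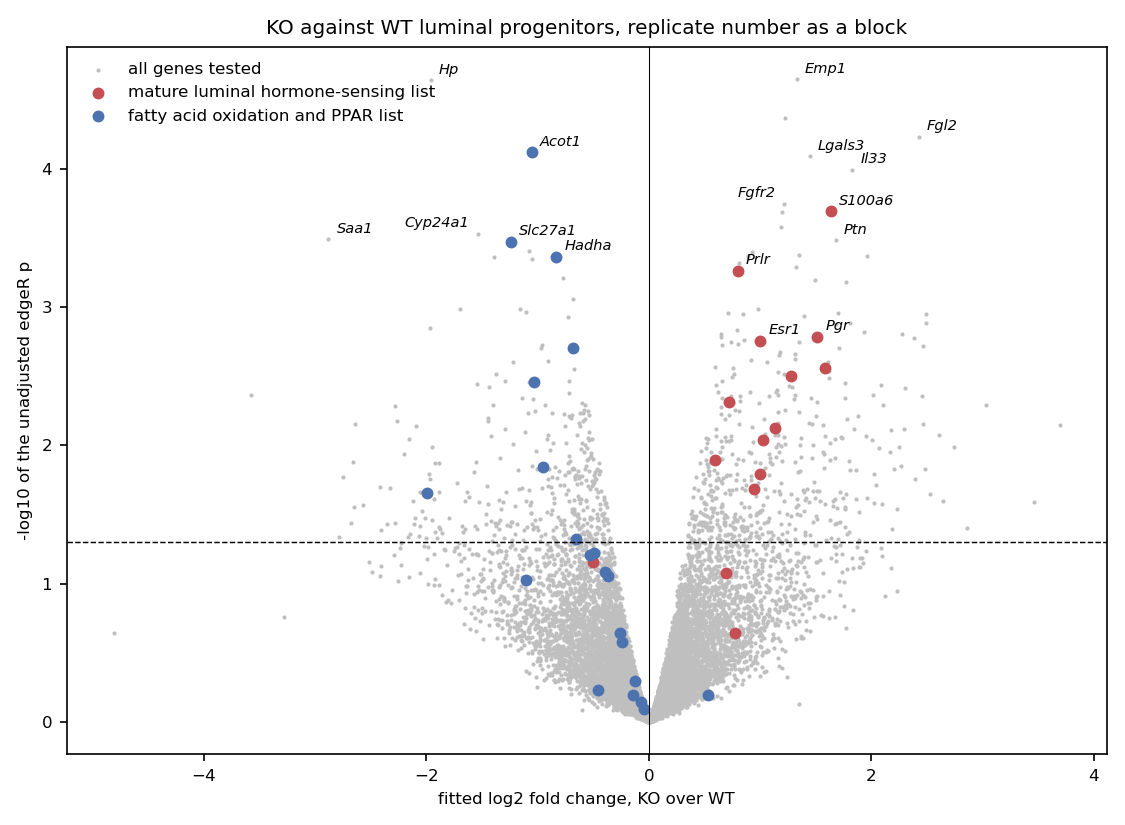
Fitted log2 fold change of KO over WT (x axis) against -log10 of the unadjusted edgeR p (y axis) for the 11700 genes tested in luminal progenitors, with the dashed line at an unadjusted p of 0.05. Red points mark 15 hormone-sensing genes, 12 of them above the line on the right, and blue points mark 21 fatty acid oxidation genes, 8 of them above the line on the left.

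The genes with the smallest p on the higher side were Emp1, Fgl2, Lgals3 and Il33. Emp1, a membrane protein of the PMP22 family, had the smallest p of all genes (chr6:135362545-135383173, plus strand, mm10). It stood at 77.7, 61.4, 137 and 134 CPM in WT replicates 1 to 4 and at 158, 110, 498 and 397 CPM in KO (log2 1.33, SE 0.20, edgeR adjusted p = 0.134). KO was above WT in every pair, and the lowest KO value lay within the WT range. Fgl2, a fibrinogen-like protein with immune functions, stood at 2.12, 1.03, 3.38 and 6.34 CPM in WT and 14.3, 4.88, 18.8 and 30 CPM in KO (log2 2.43, SE 0.40, edgeR adjusted p = 0.159). Lgals3, the glycan-binding lectin galectin-3, stood at 10.7, 7.73, 33.8 and 43.3 CPM in WT and 33.1, 18.7, 134 and 80.9 CPM in KO (log2 1.45, SE 0.25). Il33, a cytokine held in the nucleus and released on damage, stood at 9.35, 28, 3.14 and 30.4 CPM in WT and 57, 106, 14.2 and 50.6 CPM in KO (log2 1.82, SE 0.32, edgeR adjusted p = 0.17). For each of the 4 genes the difference held in all pairs while the groups overlapped, and each was called by both DESeq2 and voom. The mm10 positions of the other 3 are chr5:21372642-21378374 for Fgl2, chr14:47367751-47386160 for Lgals3 and chr19:29925114-29960718 for Il33.

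Further genes on the higher side, chosen after their values were seen, had log2 fold changes from 0.93 to 1.96. Fgfr2, a fibroblast growth factor receptor needed for mammary epithelial growth, stood at 51.6 to 161 CPM in WT and 183 to 386 CPM in KO with no overlap (log2 1.22, SE 0.23, edgeR adjusted p = 0.228). Its exons overlap Ctbp2 on the same strand in the annotation, so its count may hold reads of that gene. Scnn1a, a subunit of the epithelial sodium channel, stood at 4.12, 21.3, 8.69 and 14.9 CPM in WT and 29.8, 36.9, 78.2 and 34.6 CPM in KO (log2 1.96, SE 0.41). Ptn, the heparin-binding growth factor pleiotrophin, stood at 79.6 to 316 CPM in WT and 342 to 911 CPM in KO (log2 1.68, SE 0.33). Alcam, an adhesion molecule of the immunoglobulin family, had the tightest WT values, 70.8 to 85.6 CPM, against 118 to 180 CPM in KO (log2 0.93, SE 0.19). Marcks, a substrate of protein kinase C that binds actin, had a fitted log2 difference of 1.35 (SE 0.28), the calcium-binding S100a6 1.63 (SE 0.31) and Tmem56 1.20 (SE 0.23). Every KO library lay above every WT library for these genes except Tmem56. DESeq2 called all of them but Ptn, and voom all but Ptn and Scnn1a. Each had a higher mean in WT mature luminal cells than in WT luminal progenitors (scaling over 24 libraries). Examples are Ptn (2615 against 178 CPM), Tmem56 (1393 against 86.1 CPM) and Alcam (414 against 77.3 CPM). The same held for Emp1, Lgals3 and Il33, but not for Fgl2 (3.09 against 3.23 CPM). The part of mature luminal cells within the sort in these differences was not tested.

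The genes with the smallest p on the lower side were Hp, Acot1, Cyp24a1 and Saa1. Hp, the hemoglobin-binding protein haptoglobin, was at 113, 60.8, 24.1 and 27 CPM in WT replicates 1 to 4 and at 30.2, 26.4, 5.55 and 3.77 CPM in KO (log2 -1.96, SE 0.29, edgeR adjusted p = 0.134). Saa1, serum amyloid A, was at 5.74, 43.1, 5.55 and 1.27 CPM in WT and 1.49, 3.87, 0.241 and 0.343 CPM in KO (log2 -2.88, SE 0.58, edgeR adjusted p = 0.228). The KO values of Saa1 in replicates 3 and 4 lie under the level of 3 counts, and its near-identical family members can share reads, so its fold change is uncertain. Cyp24a1, which inactivates vitamin D, was at 110, 99.8, 42.3 and 93.7 CPM in WT and 87.1, 29.8, 13 and 17.5 CPM in KO (log2 -1.54, SE 0.30). Acot1, a cytosolic thioesterase that splits long-chain acyl-CoA, was at 129, 159, 97.1 and 87.4 CPM in WT and 58.1, 77.6, 41.3 and 50 CPM in KO (log2 -1.05, SE 0.18, edgeR adjusted p = 0.159). Of these 4 genes Acot1 was the one whose groups did not overlap, and KO was below WT in every pair for each. DESeq2 called all 4, and voom all but Cyp24a1. On mm10 they lie at chr8:109575128-109579172 (Hp), chr7:46740497-46742980 (Saa1), chr2:170482708-170497145 (Cyp24a1) and chr12:84009490-84018371 (Acot1).

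The next 8 genes on the lower side, also chosen after their values were seen, had log2 fold changes from -0.68 to -1.70. Slc27a1, a fatty acid transporter, was at 125, 129, 58.4 and 118 CPM in WT and at 43.8, 42.2, 50 and 40.5 CPM in KO (log2 -1.24, SE 0.25). Hadha, a subunit of the mitochondrial trifunctional enzyme, was at 122 to 217 CPM in WT and 61.3 to 102 CPM in KO (log2 -0.83, SE 0.17). Fasn, fatty acid synthase, was at 170 to 452 CPM in WT and 102 to 255 CPM in KO, with overlap (log2 -0.68, SE 0.15). Fads2, a fatty acid desaturase, had a fitted log2 difference of -1.16 (SE 0.27). Odc1, the first enzyme of polyamine synthesis, was at 94 to 220 CPM in WT and 52.2 to 154 CPM in KO (log2 -1.05, SE 0.22). Zfp750, a transcription factor of epidermal differentiation, had -1.08 (SE 0.22), the proteoglycan Esm1 -1.39 (SE 0.29), and Gas8, a protein of motile cilia, -1.70 (SE 0.39). Groups did not overlap for Slc27a1, Hadha and Gas8. Voom called Slc27a1 and Esm1, and DESeq2 called all 8.

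**Figure D2:**
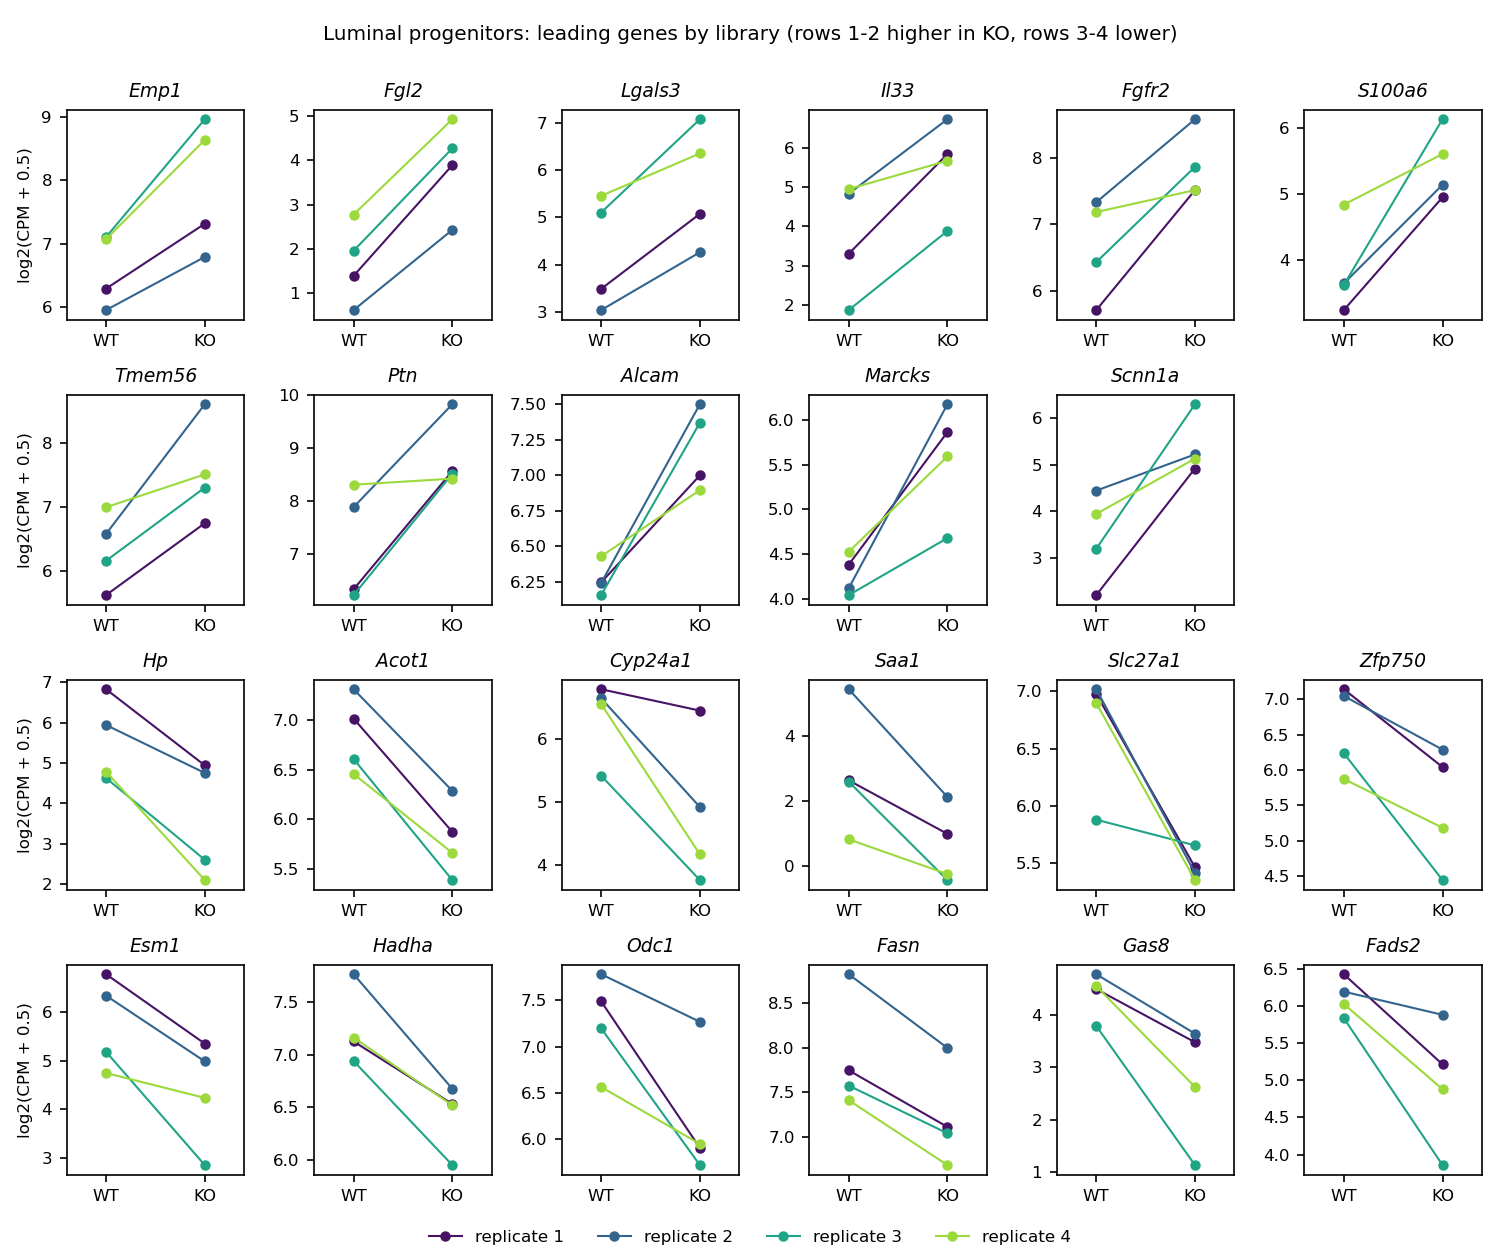
Levels of 23 leading genes on the log2(CPM + 0.5) scale (y axes, each panel with its own range) in WT and KO luminal progenitors (x axes), with a line joining the libraries of 1 replicate number. All lines of the 11 genes in the upper panels go up from WT to KO, and all lines of the 12 genes in the lower panels go down.

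Promoters of leading genes were read for the E-box, the motif that E proteins bind. RefSeq windows on GRCm38.p6 from 250 bases before to 50 bases after a start were found for 17 of the 24 leading genes. The E-box was searched as CANNTG on both strands, of which CAGCTG is 1 form. It lay in 8 of 10 windows of the genes that were higher in KO and in 7 of 11 windows of the lower ones, against 72.3% of all 32851 windows. CAGCTG lay in 1 and 2 of these windows, against 16.3% of all. These shares are descriptions, and a match is not a bound site. The 250 bases before the start are shown for the 4 genes with a single start in the table among those leading each side, with E-boxes in capitals. Fgl2 lies at chr5:21372423-21372672 (plus strand), Lgals3 at chr14:47373610-47373859 (plus strand), Acot1 at chr12:84009252-84009501 (plus strand) and Saa1 at chr7:46742981-46743230 (minus strand).
Fgl2: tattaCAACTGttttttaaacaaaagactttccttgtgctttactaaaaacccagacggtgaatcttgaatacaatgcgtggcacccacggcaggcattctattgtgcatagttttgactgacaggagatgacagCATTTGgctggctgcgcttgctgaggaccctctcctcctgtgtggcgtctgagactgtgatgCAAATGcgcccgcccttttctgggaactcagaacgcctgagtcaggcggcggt
Lgals3: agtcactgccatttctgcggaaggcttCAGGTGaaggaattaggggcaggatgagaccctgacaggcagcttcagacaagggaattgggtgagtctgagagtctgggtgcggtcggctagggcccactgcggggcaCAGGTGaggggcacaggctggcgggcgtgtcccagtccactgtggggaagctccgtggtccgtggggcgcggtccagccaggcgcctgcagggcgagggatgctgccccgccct
Acot1: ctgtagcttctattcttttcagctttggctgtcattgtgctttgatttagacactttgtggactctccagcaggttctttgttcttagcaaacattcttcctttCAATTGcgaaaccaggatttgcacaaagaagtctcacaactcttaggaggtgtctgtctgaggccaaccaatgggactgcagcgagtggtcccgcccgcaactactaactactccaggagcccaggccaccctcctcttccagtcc
Saa1: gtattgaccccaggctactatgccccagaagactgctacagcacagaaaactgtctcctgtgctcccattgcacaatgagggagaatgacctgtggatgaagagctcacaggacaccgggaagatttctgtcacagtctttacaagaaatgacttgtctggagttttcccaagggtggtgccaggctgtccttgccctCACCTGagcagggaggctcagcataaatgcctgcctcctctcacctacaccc

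Genes that mark hormone-sensing mature luminal cells had higher values in KO luminal progenitors. Of 15 tested list members 12 had an unadjusted edgeR p under 0.05 and higher fitted values, beside 4.16% of all genes, 0 had a p under 0.05 with lower ones, and 11 were higher in all 4 pairs, beside 8.16%. The median log2 fold change of the list was 1.00, against -0.02 for all genes. Over the pairs of replicates 1 to 4 the median was 0.90, 1.49, 0.79 and 0.48. The summed level of the list ran from 870 to 1380 CPM in WT and from 1600 to 2410 CPM in KO, without overlap. None of the members passed over all genes in edgeR. The direction of the list was known from earlier results of these data and is not independent evidence.

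Receptors for the mammotrophic hormones were among the members. Pgr, the progesterone receptor, stood at 17.6, 14.4, 12.8 and 47.1 CPM in WT replicates 1 to 4 and at 33.1, 132, 33.8 and 75.1 CPM in KO (log2 1.51, SE 0.37, edgeR adjusted p = 0.371). Esr1, the estrogen receptor, stood at 37.7, 19.4, 30.4 and 18.1 CPM in WT and 54.5, 59.7, 52.9 and 37.7 CPM in KO (log2 1.00, SE 0.25, edgeR adjusted p = 0.371). Prlr, the prolactin receptor, stood at 447, 509.8, 428 and 613 CPM in WT and 741, 1191, 691 and 895 CPM in KO (log2 0.80, SE 0.17, edgeR adjusted p = 0.237). Prlr and Esr1 separated the genotypes, the latter by a narrow margin in WT replicate 1 and KO replicate 4, while WT replicate 4 held more Pgr than 2 KO libraries. DESeq2 called all 3 receptors and voom called Prlr.

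Transcription factors of the hormone-sensing lineage went the same way except for Gata3. Foxa1, which opens chromatin for the estrogen receptor, stood at 9.6, 18.9, 3.14 and 18.1 CPM in WT and 14.9, 57.1, 16.7 and 30 CPM in KO (log2 1.28, SE 0.35). Tbx3, also needed for mammary development, was found at 8.48, 9.62, 4.83 and 16.2 CPM in WT and 20.7, 30.3, 44.9 and 21.4 CPM in KO (log2 1.58, SE 0.42), and DESeq2 called it (adjusted p = 0.0243). Cited1, a coactivator that works with the estrogen receptor, had a fitted log2 difference of 1.02 (SE 0.33). Gata3, a luminal transcription factor, stood at 58.2 to 92.6 CPM in WT and 20.5 to 83.6 CPM in KO (log2 -0.50, SE 0.25). Among surface and secreted products, Ly6a (Sca-1) had 1.13 (SE 0.35), Cd55, an inhibitor of complement, 0.72 (SE 0.21), Prom1 (CD133) 0.95 (SE 0.35), and Stc2, stanniocalcin, 1.00 (SE 0.35). Areg, the EGF receptor ligand induced by estrogen, stood at 84.6, 42.1, 60.9 and 123 CPM in WT and 178, 303, 35.7 and 126 CPM in KO (log2 0.78, SE 0.58), and KO replicate 3 lay below every WT value. Wnt4, a target of the progesterone receptor, had a fitted log2 difference of 0.69 (SE 0.37).

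Levels of these genes in luminal progenitors remained below those of mature luminal cells in both genotypes. On the scaling over 24 libraries the mean level of Pgr was 23.1 CPM in WT and 69.2 CPM in KO luminal progenitors, and 408 CPM in WT and 446 CPM in KO mature luminal cells. Esr1 had means of 26.6 and 51.5 CPM in luminal progenitors and 228 and 221 CPM in mature luminal cells. Cd55 was the exception among the members named here, at 146 and 260 CPM in luminal progenitors and 54.5 and 40.8 CPM in mature luminal cells. KO replicate 2 had the highest summed level of the list (2410 CPM), and without replicate 2 the median was 0.79, with 9 members at an unadjusted edgeR p under 0.05. Without replicate 1 the members at an unadjusted p under 0.05 numbered 8. Bulk libraries cannot tell more cells of a type from more RNA per cell, and the part of mature luminal cells within the sort in these differences was not tested.

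Genes of fatty acid oxidation and of the PPAR receptors that control it had lower values in KO luminal progenitors. Of 21 tested members 8 had an unadjusted edgeR p under 0.05 with lower fitted values, beside 3.04% of all genes, and 0 with higher ones. Fitted values were below 0 for 20 of the 21, Pparg, at 3.43 CPM or less in every library, being the exception, and 8 were lower in all 4 pairs, beside 7.98%. The list's median log2 fold change was -0.49, and -0.37, -0.65, -0.57 and -0.15 over the pairs of replicates 1 to 4. This list was written with earlier results of these data known, so its direction is not independent evidence.

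The members with the smallest p include a fatty acid transporter, thioesterases, a peroxisomal dehydrogenase and mitochondrial enzymes. Beside Acot1, Slc27a1 and Hadha, described above, Hsdl2, a peroxisomal dehydrogenase, stood at 163, 202, 257 and 179 CPM in WT replicates 1 to 4 and at 95.9, 117, 135 and 151 CPM in KO (log2 -0.68, SE 0.17, edgeR adjusted p = 0.371). The genotypes did not overlap for Hsdl2. Pdk4, a kinase that shuts off pyruvate oxidation when fatty acids are burnt, stood at 539, 253, 287 and 155 CPM in WT and 106, 112, 207 and 168 CPM in KO (log2 -0.95, SE 0.33), with the pair of replicate 4 the one where KO was not lower. Acaa2, the mitochondrial thiolase, had a fitted log2 difference of -1.03 (SE 0.28) and Acot2, a mitochondrial thioesterase, -0.66 (SE 0.30). Acot1 and Acot2 are close copies, so the estimated counts may divide their reads.

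Other steps of the pathway had smaller fitted differences relative to their errors. Cpt1a and Cpt2, the carnitine transferases at the mitochondrial membranes, had log2 fold changes of -0.37 (SE 0.20) and -0.46 (SE 0.83). The acyl-CoA dehydrogenases Acadl, Acadvl and Acadm had -0.40 (SE 0.21), -0.24 (SE 0.20) and -0.07 (SE 0.21). Hadhb, the partner subunit of Hadha, stood at 103 to 146 CPM in WT and 95.1 to 128 CPM in KO (log2 -0.13, SE 0.18). The receptor gene Ppard had -0.14 (SE 0.29). Plin2, a coat protein of lipid droplets, and Angptl4, an inhibitor of lipoprotein lipase, are PPAR targets and had -0.49 (SE 0.24) and -0.53 (SE 0.26).

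**Figure D3:**
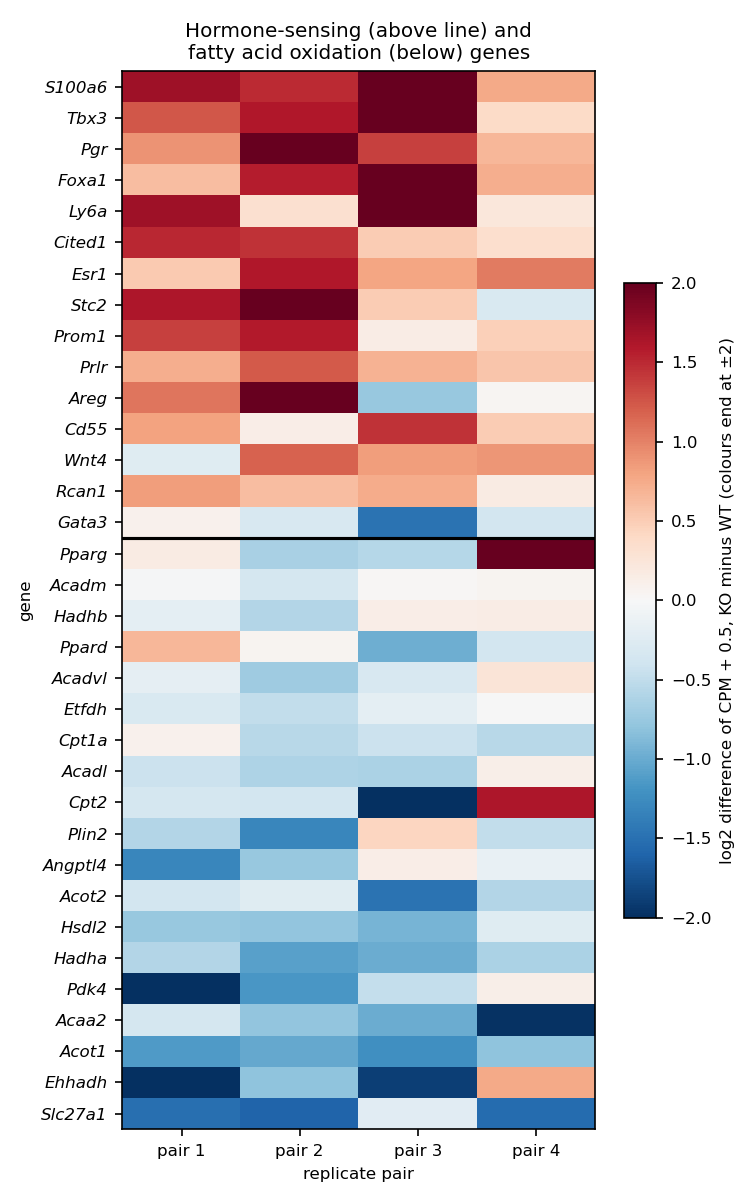
Log2 difference of CPM + 0.5 between KO and WT (colour, ending at 2 in either direction) for each replicate pair (columns) and each gene drawn (one line per gene) of the hormone-sensing list, all 15 above the black line, and the fatty acid oxidation list, 19 of 21 below it. Red cells fill most of the upper block, where 11 of 15 genes were higher in all 4 pairs, and blue cells fill most of the lower block.

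Of 12 heat shock genes 6 had an unadjusted edgeR p under 0.05 with lower fitted values in KO, beside 3.04% of all genes, and 1 with a higher one, beside 4.16%, and the median log2 fold change was -0.36. Hspa8, the constitutive HSP70, stood at 1488, 2129, 2007 and 2117 CPM in WT and 1275, 1300, 1572 and 1103 CPM in KO (log2 -0.56, SE 0.18, edgeR adjusted p = 0.526). Hsp90ab1, the constitutive HSP90, stood at 1686 to 1906 CPM in WT and 1081 to 1654 CPM in KO without overlap (log2 -0.44, SE 0.17). The inducible genes Hspa1a and Hspa1b, close copies of each other, had -0.13 (SE 0.38) and -0.10 (SE 0.30), and the small chaperone Hspb1 had 0.84 (SE 0.31). Without the replicate block 2 of the 12 had an unadjusted p under 0.05 with lower values, as also without replicate 3 or without replicate 4, and within replicates 1 and 2 alone 0 did. In the list of 18 genes induced by tissue dissociation, 3 had an unadjusted p under 0.05 with higher values. The share of all genes was 4.16%, and 0 of the 18 were lower at such a p.

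In the list of luminal progenitor identity 3 of 15 tested genes had fitted values above 0, against 48.1% of all genes. The medians over the pairs of replicates 1 to 4 were -0.09, -0.63, -0.16 and 0.03. Of 15 tested members 1 had an unadjusted edgeR p under 0.05 with a higher value and 2 with lower values. Of all genes 4.16% were higher and 3.04% lower at this p, and the list's median was -0.22. Aldh1a3, a retinaldehyde dehydrogenase of progenitor cells, stood at 58.1, 22.7, 35.3 and 36.2 CPM in WT and 61.8, 37.9, 163 and 111 CPM in KO (log2 1.16, SE 0.31, edgeR adjusted p = 0.44). Hey1, a transcriptional repressor and Notch target, stood at 1047, 814, 133 and 389 CPM in WT and 1020, 217, 61.3 and 152 CPM in KO (log2 -1.11, SE 0.26, edgeR adjusted p = 0.338). Both libraries of replicate 1 held the most Hey1, and KO was lower in each pair. DESeq2 called Aldh1a3 (adjusted p = 0.0253) and Hey1 (adjusted p = 0.00408). Ehf, an epithelial ETS factor, had a fitted log2 difference of -0.55 (SE 0.18).

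Of 13 pan-luminal genes 4 had an unadjusted p under 0.05 with higher values, beside 4.16% of all genes, among them the keratins Krt8 (log2 0.48, SE 0.17) and Krt18 (log2 0.45, SE 0.20) and the tight junction gene Cldn4 (log2 0.59, SE 0.23). Milk genes were highest in 1 library. Their summed level was 117000 CPM in WT replicate 2 and 16200 to 36000 CPM in the other 7 libraries. Of 12 tested milk genes 1 had an unadjusted p under 0.05, beside 7.21% of all genes in either direction. This was Ltf, the iron-binding lactoferrin, at 202, 290, 111 and 153 CPM in WT and 338, 223, 553 and 424 CPM in KO (log2 1.04, SE 0.37). Of 11 tested basal and contractile genes 3 had an unadjusted p under 0.05 with lower values and 1 with a higher one. Of all genes 3.04% were lower and 4.16% higher at this p. Myh11, smooth muscle myosin, stood at 12.4 to 21.5 CPM in WT and 5.55 to 8.92 CPM in KO without overlap (log2 -1.29, SE 0.35), and Acta2, smooth muscle actin, at 18.6 to 30.9 and 3.62 to 26.8 CPM (log2 -1.55, SE 0.43). DESeq2 called Acta2 (adjusted p = 0.0356). WT basal cells held Acta2 at 3670 ± 964 CPM (SD, n = 4), and the part of basal cells within the sort in these differences was not tested.

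The partners and relatives of ID4 had small or uncertain differences. Of 6 tested ID and E protein genes 0 had an unadjusted edgeR p under 0.05 with a higher value and 1 with a lower one. Of all genes 4.16% were higher and 3.04% lower at this p, and the median of the list was 0.29. Tcf3, the E protein E2A, stood at 20.2, 22.2, 9.9 and 22.5 CPM in WT and 6.33, 19.7, 6.76 and 10.3 CPM in KO (log2 -0.88, SE 0.36, edgeR adjusted p = 0.657). Id3, an ID protein, stood at 2.87, 4.3, 1.69 and 5.87 CPM in WT and 15.3, 5.39, 4.11 and 8.06 CPM in KO (log2 1.10, SE 0.54, edgeR adjusted p = 0.722), higher in all 4 pairs. Among 7 tested genes of the epithelial-mesenchymal transition and their epithelial counterparts, Zeb2, a repressor of epithelial genes, was the 1 with an unadjusted p under 0.05 (log2 1.39, SE 0.52).

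Signalling lists each held a few genes at an unadjusted edgeR p under 0.05. Of all genes 4.16% were higher and 3.04% lower at this p. These small counts describe single genes, not pathways. In the Notch list 2 of 11 were lower, Hey1 and the related repressor Heyl (8.73, 7.73, 33.6 and 15.9 CPM in WT, 0.186, 8.41, 3.38 and 4.11 CPM in KO, log2 -2.26, SE 0.69). In the Wnt list 1 of 15 was higher, the noncanonical ligand Wnt5a, at 15.8, 33, 10.4 and 53.4 CPM in WT and 44.1, 206, 18.6 and 64.3 CPM in KO (log2 1.32, SE 0.34). Among 16 TGF-beta and BMP genes the receptor Tgfbr2 stood at 36 to 75.8 CPM in WT and 85.5 to 106 CPM in KO without overlap (log2 0.98, SE 0.23, edgeR adjusted p = 0.338), while the ligand Tgfb3 was lower (log2 -0.47, SE 0.16). Of 10 EGF receptor genes 2 ligands were higher, Hbegf (log2 0.66, SE 0.18) and Tgfa (log2 1.29, SE 0.36), in all 4 pairs each. Fitted values were above 0 for 9 of the 10, against 48.1% of all genes. The median of this list was 0.31, with pair medians of 0.32, 0.25, 0.84 and 0.27. Of 11 genes around STAT5 the cyclin Ccnd1 was lower, at 509, 323, 240 and 324 CPM in WT and 231, 355, 52.6 and 101 CPM in KO (log2 -1.22, SE 0.31), with KO replicate 2 above its WT partner. DESeq2 called 5 of the genes named here: Hey1, Heyl (adjusted p = 0.0243), Wnt5a (0.0184), Tgfbr2 (0.0162) and Ccnd1 (0.00627).

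Integrins and adhesion genes had 5 of 17 tested members at an unadjusted edgeR p under 0.05 with higher values, beside 4.16% of all genes, and 1 with a lower value. Of the 17, 8 were higher in all 4 pairs, beside 8.16%. Itga5, the fibronectin receptor chain, stood at 1.72 to 4.83 CPM in WT and 6.17 to 10.6 CPM in KO, and Itga3, a laminin receptor chain, at 18.8 to 27.2 CPM and 31 to 46.4 CPM. Neither overlapped between genotypes (log2 1.57, SE 0.55 and log2 0.66, SE 0.26). Zyx, a focal adhesion protein, had a fitted log2 difference of 0.65 (SE 0.21), Cd44, the hyaluronan receptor, 0.38 (SE 0.16), and Ilk, integrin-linked kinase, -0.56 (SE 0.22). The list's median was 0.18. In the basement membrane list Nid1, nidogen, was higher (log2 1.62, SE 0.43; called by DESeq2, adjusted p = 0.0041) and the collagen Col4a2 lower (log2 -1.55, SE 0.53).

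Matrix genes and fibroblast markers had high values in the same KO libraries. The lists share Col1a1, Col1a2, Col3a1, Dcn, Lum and Fbln1, so their values are not independent of each other. The interstitial matrix list had a median of 0.74, and its pair medians were 2.28, 0.52, 1.12 and -0.53. Of its 13 tested members 2 had an unadjusted edgeR p under 0.05 with higher values, beside 4.16% of all genes. The fibroblast list had a median of 0.93 with 4 of 12 members at an unadjusted p under 0.05 and higher values, beside 4.16% of all genes, and pair medians of 2.48, 0.64, 1.02 and -0.51. Col1a2, a collagen I chain held by both lists, stood at 16, 18.6, 14.7 and 45.5 CPM in WT and 45.8, 28.1, 40.3 and 51.8 CPM in KO (log2 0.93, SE 0.29). Summed fibroblast markers were at 149 to 174 CPM in WT replicates 1 to 3 and 617 CPM in WT replicate 4, and at 215 to 819 CPM in KO. Without replicate 1 the medians were 0.31 and 0.24, with 1 member of each list at an unadjusted p under 0.05, and without replicate 4 they were 1.20 and 1.56, with 7 and 9 such members. The part of fibroblasts within the sort in the matrix and adhesion values was not tested. Erythroid markers were at 0 to 1.18 CPM summed in every library. Immune markers were at 8.92 to 28.4 CPM summed, and 3 of them had enough counts to be tested. The macrophage gene Cd68 stood at 0.499, 2.41, 2.17 and 7.29 CPM in WT and 11.2, 2.69, 15.9 and 8.23 CPM in KO, higher in all 4 pairs (log2 1.77, SE 0.76, edgeR adjusted p = 0.657). Cd74, which chaperones antigen-presenting molecules, was lower in all 4 pairs (log2 -1.80, SE 0.75, edgeR adjusted p = 0.657), and Adgre1, another macrophage gene, was at 0 in all 8 libraries. Endothelial markers were at 6.52 to 57.2 CPM summed. Pericyte, adipocyte and Schwann cell markers had 4, 2 and 2 tested members, of which 0 had an unadjusted edgeR p under 0.05.

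The remaining lists gave no common direction over the pairs. For their counts, the shares of all genes at an unadjusted edgeR p under 0.05 were 4.16% higher and 3.04% lower. Proliferation genes had a median of -0.70 with 0 of 17 at an unadjusted edgeR p under 0.05, and pair medians of -0.04, 0.59, -2.66 and -0.30. Interferon response genes had a median of 0.13 with 3 of 17 higher, including Stat2, a subunit of the interferon-activated factor, at 6.28 to 7.77 CPM in WT and 9.93 to 20.9 CPM in KO (log2 0.91, SE 0.38). Of 8 cytokine genes Il33 was the 1 at an unadjusted p under 0.05. Cholesterol synthesis had 0 of 15 (median 0.10), and glutathione and antioxidant genes 2 higher and 2 lower of 17 (median -0.02), with Cat, catalase, among the lower (log2 -0.63, SE 0.23). All 13 mitochondrially encoded protein genes had fitted values above 0, against 48.1% of all genes. Their median was 0.31, and 2 had an unadjusted p under 0.05.

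**Figure D4:**
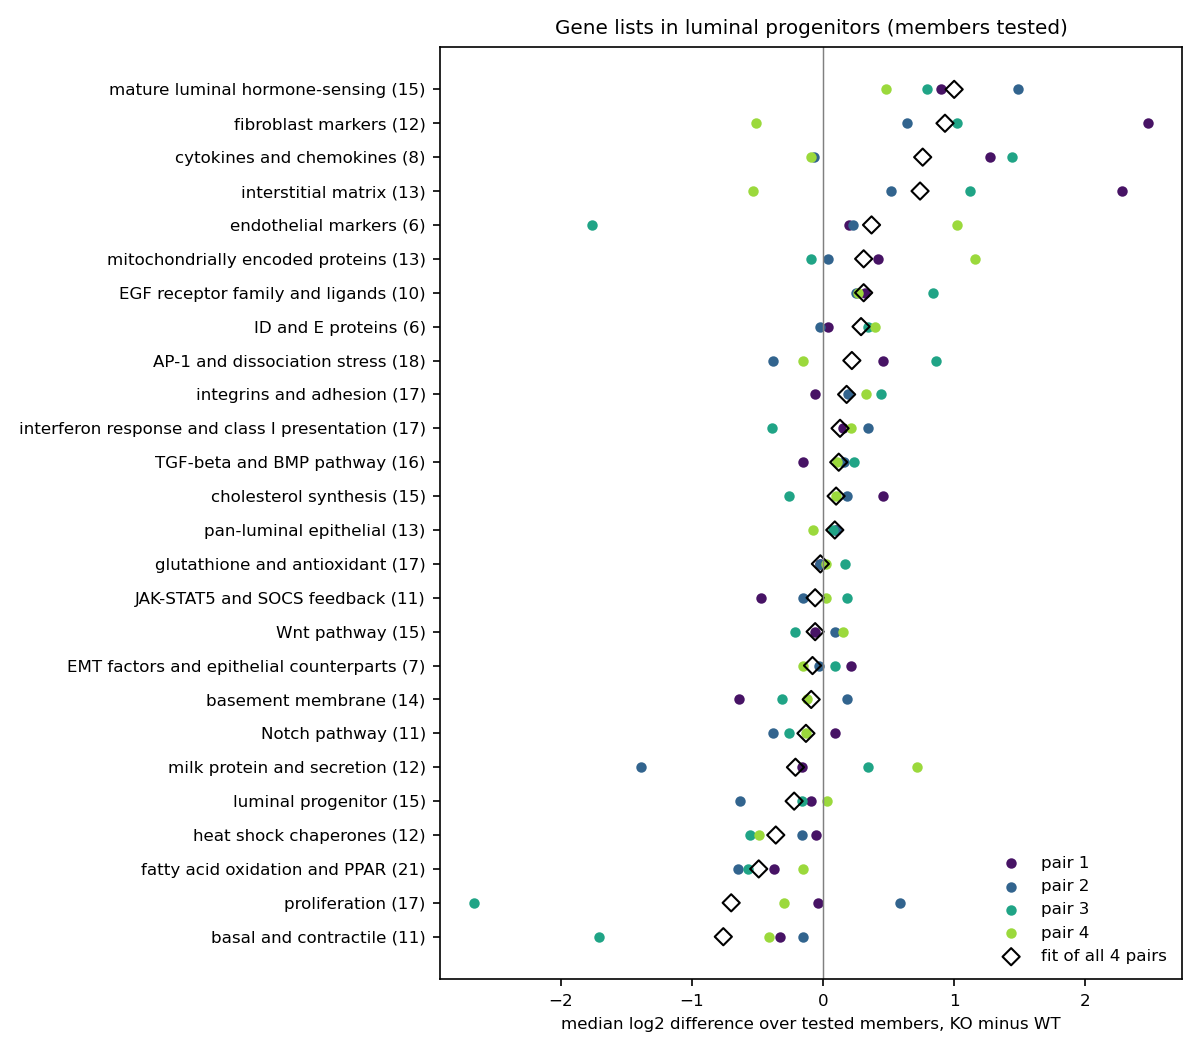
Median log2 difference between KO and WT over the tested members of 26 gene lists (y axis, number tested in brackets), with coloured points for each replicate pair and a diamond for the fit of all 4 pairs. The 4 pairs of the hormone-sensing list lie between 0.48 and 1.49 and those of the fatty acid oxidation list between -0.65 and -0.15, while the fibroblast list runs from -0.51 to 2.48.

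The KO effect in luminal progenitors was then set against that in basal and mature luminal cells in a fit of all 24 libraries. In edgeR 0 of 14082 genes differed from the effect in basal cells (0%, smallest adjusted p = 0.0981, 1020 genes at an unadjusted p under 0.05), and 0 differed from that in mature luminal cells (0%, smallest adjusted p = 1, 203 genes at an unadjusted p under 0.05). DESeq2 and voom were not run on these differences. Cited1 had the smallest p against basal cells, with a log2 effect of 1.02 (SE 0.32) in luminal progenitors and -1.99 (SE 0.39) in basal cells (difference 3.01, SE 0.51, edgeR adjusted p = 0.0981). Cdo1, which oxidizes cysteine, had 0.68 and -2.09 (difference 2.77, SE 0.48), and Bmp3, a ligand of the BMP family, 1.60 and -1.82 (difference 3.42, SE 0.62). Between the genotypes of luminal progenitors DESeq2 called Bmp3 (adjusted p = 0.0272). On the other side stood Myh11 (difference -1.49, SE 0.27), the potassium channel gene Kcnk1 (-1.66, SE 0.34) and Odc1 (-1.81, SE 0.41). Cited1, Cdo1 and Bmp3 had means of 10.1, 17.7 and 23.4 CPM in WT basal cells and 2.93, 3.58 and 9.85 CPM in KO basal cells. Their means in WT mature luminal cells were 226.5, 439 and 271 CPM. Myh11 was at 17.1 and 6.89 CPM in WT and KO luminal progenitors, against 2460 CPM in WT basal cells. The part of other populations within each sort in these differences was not tested.

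Against mature luminal cells the genes with the smallest p were Bmp3 (difference 2.37, SE 0.56), Marcks (1.70, SE 0.43) and Man1a, a Golgi mannosidase (1.35, SE 0.33), on the higher side. Both DESeq2 and voom called Man1a between the genotypes of luminal progenitors. Slit2, an axon guidance ligand (-3.23, SE 0.70), Arl4c, a small GTPase (-2.27, SE 0.54), and Auts2 (-1.46, SE 0.46) stood on the lower side, and edgeR gave each of the 6 an adjusted p of 1. For the hormone-sensing list the median log2 fold change in this fit was 0.99 in luminal progenitors, -0.31 in basal cells and -0.09 in mature luminal cells. The fatty acid oxidation list had medians of -0.53, -0.48 and -0.44 in the same order. In mature luminal cells Acot1 had -0.87 (SE 0.23) and Hadha -0.73 (SE 0.20), against -0.17 (SE 0.23) and -0.32 (SE 0.20) in basal cells, while Slc27a1 had -0.19 (SE 0.37) and -0.20 (SE 0.39). These medians are descriptions, and no difference of a list between populations was tested.

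**Figure D5:**
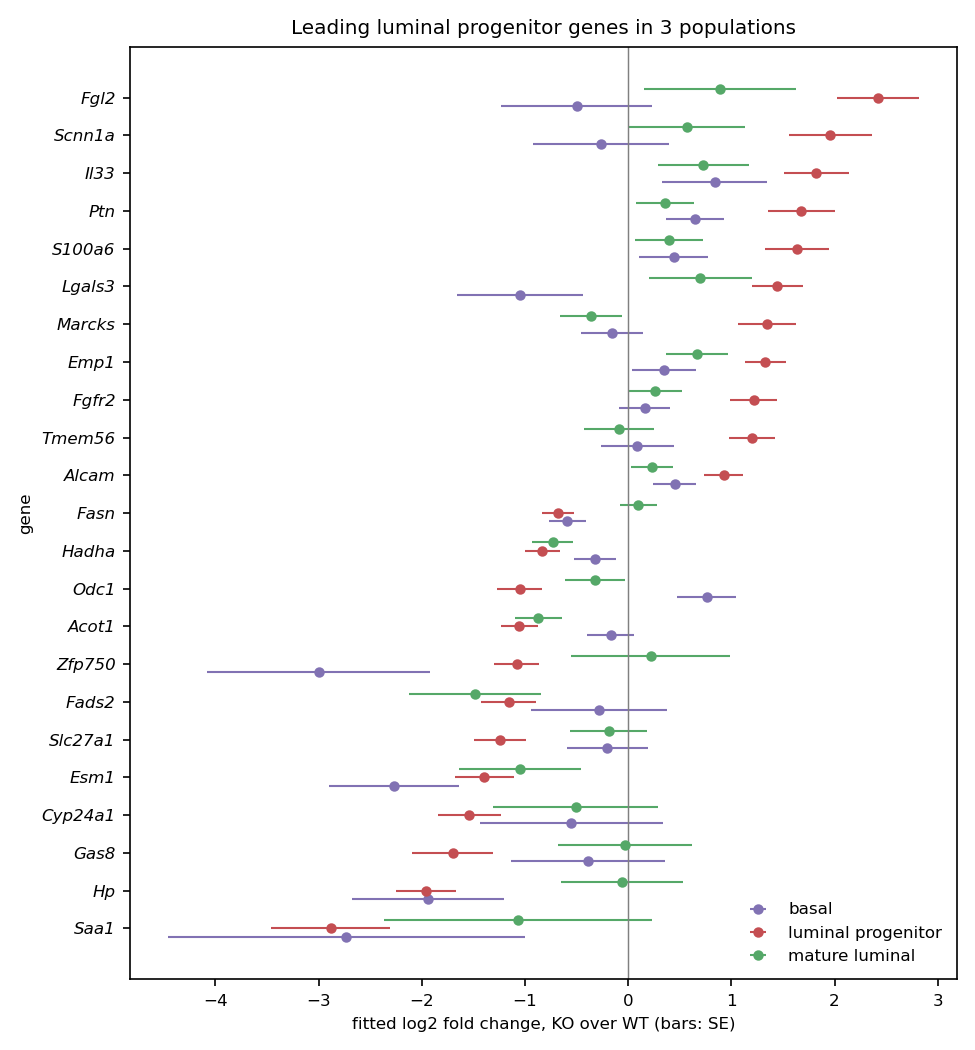
Fitted log2 fold change of KO over WT (x axis, bars are standard errors) for 23 leading genes of luminal progenitors (y axis) in basal cells, luminal progenitors and mature luminal cells. Luminal progenitor values are from the fit of 8 libraries, the others from the fit of all 24. The genes were chosen in luminal progenitors, so red points lie far from 0 by choice, and none of the differences between populations passed in edgeR.

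Genes near Id4 were counted apart. Within 10 Mb of Id4 on chromosome 13 an unadjusted edgeR p under 0.05 was found for 5 of 91 tested genes (5.49%), among them the aminoacyl-tRNA synthetase Iars and the proteoglycan Ogn, against 25 of 402 on the whole chromosome (6.22%) and 7.21% of all genes.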

How the data were processed

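RNA of sorted cells was amplified (NuGEN Ovation V2) and sequenced, per the labels' protocols. The values deposited by the authors are expected counts of each gene in each library, without normalization, per the file headers and the values. The file also holds a gene length, which was not used. Tools named in the submitters' processing notes are cutadapt, STAR and RSEM, with the build mm10 and no versions. Counting by strand is not stated, so reads of overlapping genes cannot be told apart. Among the leading genes, Cyp24a1 and Hadha overlap exons of Pfdn4 and Garem2 on the opposite strand. The same holds for other named genes, such as Ccnd1 with LTO1. Groups came from the labels and replicate numbers from the sample titles. No libraries of a group agreed within counting noise (smallest chi-square per degree of freedom 33.8).

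Expected counts were rounded to whole numbers. KO was compared with WT over the 8 luminal progenitor libraries with edgeR 4.0.16 in R 4.3.3 (quasi-likelihood F-test, two-sided, TMM scaling, default expression filter, robust dispersion, Benjamini-Hochberg adjustment over all tested genes, threshold 0.05) and the replicate number as a block. Same-numbered libraries deviated together from their group means, with correlations of 0.24, 0.41, 0.26 and 0.14 for numbers 1 to 4. The number for replicate 4 correlated higher with another number (0.18). Differences between populations came from all 24 libraries with a block for each replicate within a population. Alternatives were DESeq2 1.42.0, limma 3.58.1 (voom with sample weights), no block, another scaling, other filters, leaving out each replicate, replicates 1 and 2 alone, replicates 3 and 4 alone, and the fit of all libraries. Pair differences used log2(CPM + 0.5). Levels are CPM on the scaling of the 8 libraries unless said otherwise. Gene positions came from GENCODE on mm10, which held 23780 of 24007 identifiers (99.1%), and 440 of 442 list symbols matched. DESeq2 gave no adjusted p for 11438 genes, which were left out of its counts. The test was checked on simulated counts.

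The named genes are Id4, Elf5, Kit and Itgb3, and the 4 genes with the smallest p in each direction, predicted genes left out. Added to these are 2 members of each of 31 lists, and 3 genes in each direction of each difference between populations. Conditions of 1 sign in all pairs and at least 5 CPM in the higher genotype were set for genes that passed. Since none passed, they chose no gene. Further leading genes in each direction and other list members were named after their values were seen. Some genes that these rules name are not reported here. Since no gene passed, promoters of the leading genes were searched in place of those of called genes. The comparison, the lists and the members were chosen with earlier results of these data known.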

Additional observations from a re-analysis of the deposited data

Results flagged for a closer look

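Single luminal progenitor libraries stood apart from the other 3 of their genotype in 27 of 242 groups of 4 values looked at. The cutoff would flag about 1 in 20 groups of independent, normally distributed values. These values were not log-transformed and some groups share genes, so the count cannot be set against that rate. The reasons were not tested.

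WT replicate 4 was high in matrix and fibroblast transcripts. It held the list sums of fibroblast markers (617 CPM), interstitial matrix (866 CPM) and cytokines (688 CPM), and the genes Col1a2 (45.5 CPM), Col5a1 (9.04 CPM), Tek (12.4 CPM), Cd74 (17.3 CPM) and S100a6 (28.1 CPM), each far above the other WT libraries. WT replicate 2 was high in milk and lipid transcripts, with summed milk genes at 117000 CPM, the casein Csn1s1 at 26600 CPM, Saa1 at 43.1 CPM, Fasn at 452 CPM, the lipase Pnpla2 at 220 CPM and summed adipocyte markers at 229 CPM. In WT replicate 3 Slc27a1 was low at 58.4 CPM and the summed interferon genes were high at 1890 CPM. WT replicate 1 was low in summed chaperones (5140 CPM).

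Among the KO libraries, replicate 2 was high in Ptn (911 CPM), Odc1 (154 CPM), Tcf7 (3.2 CPM) and summed proliferation genes (832 CPM). KO replicate 1 was high in Itgb3 (370 CPM), Hey1 (1020 CPM) and the sums of the Notch list (1840 CPM) and the luminal progenitor list (3410 CPM). Both sums include Hey1. Scnn1a was high in KO replicate 3 (78.2 CPM), and summed adipocyte markers were low in KO replicate 4 (133 CPM).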

How the results depend on the processing

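With the replicate block edgeR called 0 genes, and without the block also 0, with 439 rather than 843 at an unadjusted p under 0.05. Calls numbered 87 with DESeq2, 23 with voom, 142 without the expression filter, 38 within replicates 1 and 2 alone and 1 within replicates 3 and 4 alone. Leaving out a replicate gave 0 to 5 calls: 0 without replicate 1, 5 without replicate 2 (Emp1 higher, Hp, Ccnd1, Dclk1 and Rspo1 lower), 1 without replicate 3 (Slc27a1) and 1 without replicate 4 (Ptn). The effect differed from that in basal cells for 1 gene without replicate 4. Counts of list members at an unadjusted p under 0.05 under these settings were added after the data were seen.

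A few genes, none of which passed in edgeR, changed sign. Itgb3 had a fitted log2 difference of 0.10 without the replicate block, 0.01 with voom, 0.04, 0.08 and 0.03 without replicates 2, 3 and 4 (-0.28 without replicate 1), and 0.23 within replicates 1 and 2. Pnpla2 had -0.06 without the replicate block, -0.11 with voom, -0.07 and -0.12 without replicates 1 and 3 (0.22 without replicate 2), and -0.19 within replicates 1 and 2. Pmp22 had -0.01 with voom and -0.22 and -0.03 without replicates 1 and 3 (0.38 without replicate 2), and Rgs5, at 0.49 over all pairs, had -0.05 without replicate 4 (0.93 without replicate 1). Within replicates 1 and 2 Kit had -0.25, Cish -0.04 and Mcm3 0.39, against 0.30, 0.44 and -0.87 over all pairs. Within replicates 3 and 4 Tek had -0.04, against 0.90 over all pairs. The cause was not tested. Of the other gene values under the alternatives 1092 kept their direction and side of the threshold and 108 came to pass it. Low RNA input and totals of 3786225 to 7246445 counts limit genes of a few CPM most.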

Other observations

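Rspo1 and Dclk1 were low in 3 KO libraries and not in KO replicate 2, a pattern noticed after the values were seen. Rspo1, a secreted enhancer of Wnt signalling, stood at 50.6, 21.1, 60.4 and 38.2 CPM in WT replicates 1 to 4 and at 1.49, 116, 2.9 and 1.03 CPM in KO (log2 -3.28, SE 1.97, edgeR adjusted p = 0.823). Without replicate 2 its log2 fold change was -4.85 (edgeR adjusted p = 0.000542). Dclk1, a microtubule-associated kinase, stood at 39.4, 13.9, 43 and 23.5 CPM in WT and 5.58, 27.1, 4.35 and 2.57 CPM in KO, with -2.15 (SE 0.68) in the fit of all pairs and -3.10 without replicate 2 (edgeR adjusted p = 0.0294). DESeq2 called Dclk1 with all pairs (adjusted p = 0.0102). Ccnd1, described above, had -1.67 without replicate 2 (edgeR adjusted p = 0.0294). KO replicate 2 also held the most summed proliferation transcripts, and leaving it out together with its WT partner was 1 of the 4 such choices.

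Voom also called genes outside the groups described above. Cd164, a sialomucin, stood at 342 to 606 CPM in WT and 610 to 1149 CPM in KO without overlap (log2 0.81, SE 0.17). Dst (ENSMUSG00000026131), a linker of the cytoskeleton to hemidesmosomes, had a fitted log2 difference of 0.89 (SE 0.18), and 2 other identifiers carry the same name. Without the expression filter edgeR called both of these as well, 1 higher and 1 lower in KO. Tspan13, a tetraspanin, stood at 6.11 to 21.6 CPM in WT and 23.4 to 74.7 CPM in KO, also without overlap. Itih2, a serum protein that binds hyaluronan, stood at 3.86 to 19.4 CPM in WT and 5.55 to 68 CPM in KO. Man1a had a fitted log2 difference of 1.32 (SE 0.28). None of them passed in edgeR.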
